A study of Mus musculus with 7 samples.

Results

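The genes described here make glucose in the liver or answer to FOXO1, a transcription factor that insulin holds out of the nucleus. They are 10 genes of the 33426 Ensembl gene IDs in the deposited table, picked by ID: Pcx, Pck1, Fbp1, G6pc, Slc37a4, Foxo1, Ppargc1a, Igfbp1, Irs2 and Tat. The rule that names them uses no measured value, although earlier results of these data were known when it was written. All 10 were among the 20055 IDs tested after the dimmest 40% were left out.

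Livers came from 7 male wild-type C57BL/6J mice, an inbred strain that becomes obese on fatty food. In the BMJ + DIO group, 4 mice with diet-induced obesity (DIO) received freeze-dried bitter melon juice (BMJ) by daily gavage at 200 mg per kg for 40 days. In the DIO group, 3 mice had the diet alone for those 40 days. Every mouse was on a 60 kcal% fat diet from 4 weeks of age. The labels give the age as 16 weeks, but the diet went on for 40 days after week 16, so the age at collection is not settled. No gavage is described for the DIO mice, so juice and gavage cannot be told apart, and no lean mice were analysed here. The feeding state at collection, to which several of these genes respond, is not given in the sources used here. Each liver gave 1 array, and the number of arrays limits the precision. The samples are labelled biological replicates. One array, DIO replicate 3, was unlike the rest: it gave the lowest of the 7 values for 83.5% of the 1489 IDs that average at least 7 on the log2 scale, so results are also given without it where they turn.

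Gluconeogenesis builds glucose from lactate, amino acids and glycerol. Pyruvate carboxylase and PEPCK carry pyruvate past the irreversible last step of glycolysis, fructose-1,6-bisphosphatase reverses the phosphofructokinase step, and glucose-6-phosphatase releases free glucose inside the endoplasmic reticulum after a transporter has brought its substrate in. In fasting, glucagon acting through cAMP and the coactivator PGC-1 alpha raises transcription of several of these genes, and FOXO1 binds insulin response elements of Igfbp1 and G6pc. Insulin removes FOXO1 from the nucleus by phosphorylation, so the mRNA level of Foxo1 is not a measure of its activity.

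Promoter windows show the letters through which such signals are known to act. Printed are windows that hold a motif named below, from Igfbp1, G6pc, Irs2, Pck1 and Slc37a4. The Ppargc1a window also holds a motif but is not printed. RefSeq windows (GRCm38.p6) reach from 250 bases before to 50 bases after each annotated start, and 13 windows matched the 10 genes by symbol, with 2 for Pcx and 3 for Slc37a4. Capitals mark CAAAACA or CAAAATA, forms of the insulin response element that FOXO1 binds, and ACGTCA, the core of the cAMP response element, on either strand. The first 3 sequences hold an insulin response form and the last 2 the cAMP core.
Igfbp1: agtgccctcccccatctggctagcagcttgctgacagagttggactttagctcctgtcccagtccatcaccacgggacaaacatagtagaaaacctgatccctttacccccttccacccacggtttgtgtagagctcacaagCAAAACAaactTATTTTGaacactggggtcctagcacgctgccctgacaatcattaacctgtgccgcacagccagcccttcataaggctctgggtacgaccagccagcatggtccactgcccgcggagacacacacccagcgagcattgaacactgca
G6pc: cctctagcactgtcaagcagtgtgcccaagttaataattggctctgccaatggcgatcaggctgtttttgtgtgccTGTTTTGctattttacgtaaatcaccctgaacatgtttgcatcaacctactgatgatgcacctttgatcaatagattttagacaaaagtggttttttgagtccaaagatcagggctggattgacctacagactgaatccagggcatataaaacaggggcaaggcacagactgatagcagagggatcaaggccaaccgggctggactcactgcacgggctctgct
Irs2: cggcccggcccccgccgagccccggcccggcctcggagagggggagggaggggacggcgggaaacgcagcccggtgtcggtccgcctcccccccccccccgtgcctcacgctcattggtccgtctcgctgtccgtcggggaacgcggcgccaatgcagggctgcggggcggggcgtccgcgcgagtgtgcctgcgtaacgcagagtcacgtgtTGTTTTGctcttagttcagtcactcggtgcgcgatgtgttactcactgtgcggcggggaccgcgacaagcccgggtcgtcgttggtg
Pck1: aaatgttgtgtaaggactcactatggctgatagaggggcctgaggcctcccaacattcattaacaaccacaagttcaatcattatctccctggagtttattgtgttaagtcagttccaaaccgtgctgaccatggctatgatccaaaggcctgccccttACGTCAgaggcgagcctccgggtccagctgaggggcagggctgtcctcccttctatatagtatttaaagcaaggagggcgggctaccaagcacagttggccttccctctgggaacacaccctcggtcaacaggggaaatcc
Slc37a4: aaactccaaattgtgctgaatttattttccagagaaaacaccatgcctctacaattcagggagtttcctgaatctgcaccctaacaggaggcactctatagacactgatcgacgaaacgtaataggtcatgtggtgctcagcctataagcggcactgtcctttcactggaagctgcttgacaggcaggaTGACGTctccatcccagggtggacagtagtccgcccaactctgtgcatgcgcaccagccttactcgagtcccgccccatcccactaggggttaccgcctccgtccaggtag
Igfbp1 is printed from chr11:7197537-7197836 (plus strand), G6pc from chr11:101367466-101367765 (plus), Irs2 from chr8:11008880-11009179 (minus), Pck1 from chr2:173152823-173153122 (plus) and Slc37a4 from chr9:44396696-44396995 (plus, the most upstream of its 3 windows). The Igfbp1 window holds CAAAACA on the printed strand 108 bases before the start and CAAAATA on the other strand 97 bases before it, 4 letters apart. CAAAACA occurred in 3 of the 13 windows, those of Igfbp1, G6pc and Irs2, and in 6.28% of all 32851 windows. CAAAATA occurred in the Igfbp1 window and in 4.36% of all windows. ACGTCA occurred in 4 of the 13 windows, from Pck1, Ppargc1a and 2 overlapping windows of Slc37a4, and in 7.51% of all windows. The full palindrome TGACGTCA, which contains that core, was in 1.79% of all windows, and GTAAACA, another FOXO site, was in 3.65%, both in 0 of the 13. The motif letters were chosen with the sequences in view, a match does not show that a factor binds, and sites outside a window were not searched.

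Bitter melon juice was not accompanied by a detectable change of the gluconeogenic genes as a set. In limma's moderated test 0 of 10 genes passed a Benjamini-Hochberg adjusted p of 0.05, and 0% of the 20055 IDs did. At an unadjusted p under 0.05, 1 of the 10 genes was called, Slc37a4, against 6.41% of all IDs tested. Slc37a4 was also the sole gene of the 10 whose groups did not overlap, with all 4 BMJ + DIO livers above all 3 DIO livers. The share of IDs without overlap was 3.52% in either direction and 1.84% in the higher direction. A count of 1 in 10 is the smallest above 0, so neither count is a result about the set. Values are log2 expression on the authors' RMA scale, in which 1 unit is a doubling, and levels are not compared between genes.

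**Figure D1:**
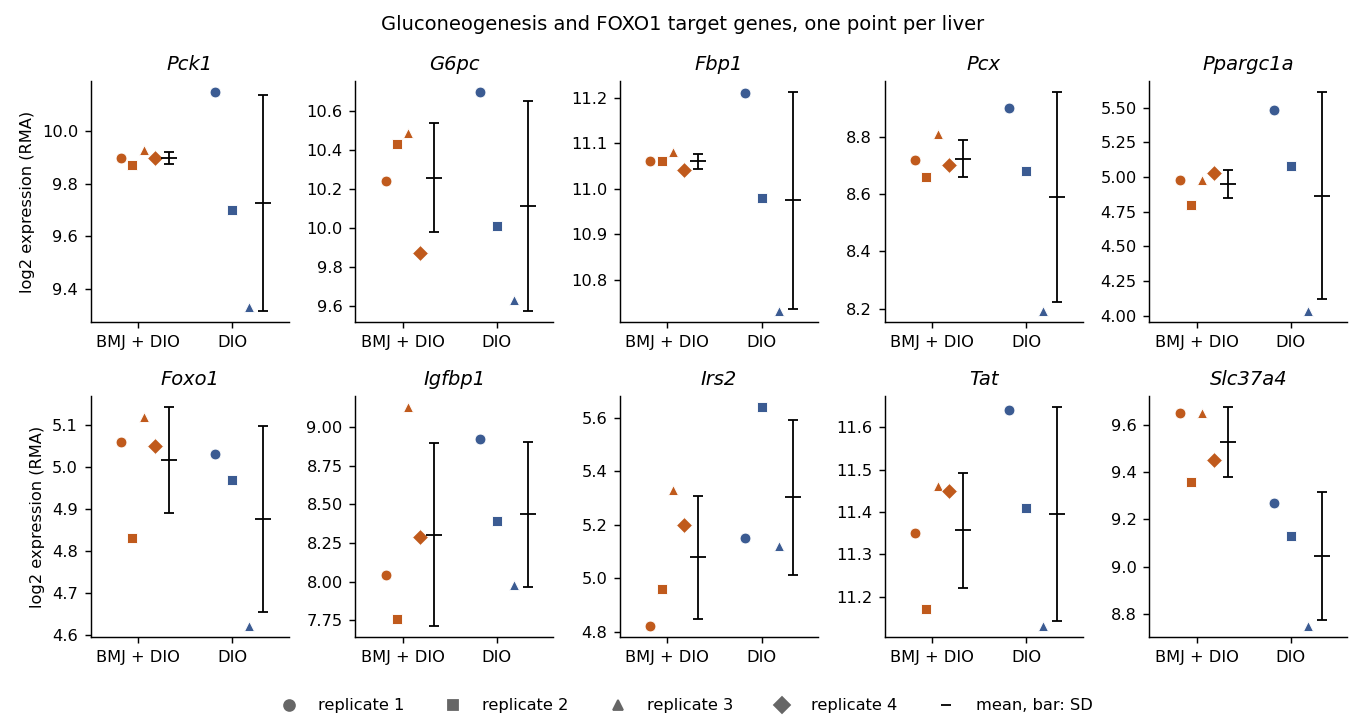
Log2 expression (RMA) of each of the 10 genes in each liver, with BMJ + DIO at left and DIO at right of each panel. Points are livers, with the symbol giving the replicate number, and bars are mean ± SD (n = 4 and n = 3). For Slc37a4 the groups do not overlap. For Pck1, G6pc, Fbp1, Pcx, Ppargc1a and Tat every BMJ + DIO liver lies between DIO replicate 3 and DIO replicate 1. Each panel has its own axis, which does not start at 0.

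Of the 4 enzymes of the pathway, Pcx, Pck1 and Fbp1 varied little among the juice-treated livers and more among the control livers, and G6pc varied in both groups. A larger SD in DIO was also found for 89.1% of the IDs that average at least 7. Pcx (ENSMUSG00000024892, chr19:4510472-4621752) encodes pyruvate carboxylase, the mitochondrial entry enzyme. It read 8.72, 8.66, 8.81 and 8.70 in BMJ + DIO replicates 1 to 4, against 8.90, 8.68 and 8.19 in DIO replicates 1 to 3. The treated livers lay inside the control range, and the difference was 0.13 (SE 0.17, 95% interval -0.27 to 0.54, limma adjusted p = 0.692).

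Pck1 (ENSMUSG00000027513, chr2:173153073-173159274) encodes the cytosolic PEPCK. It read 9.90, 9.87, 9.93 and 9.90 in BMJ + DIO livers, a range of 0.054, against 10.15, 9.70 and 9.33 in DIO livers, a range of 0.82. BMJ + DIO replicates 1 and 4 hold the same value. The means were 9.90 ± 0.02 (SD, n = 4) in BMJ + DIO and 9.73 ± 0.41 (SD, n = 3) in DIO. The difference of 0.17 (95% interval -0.28 to 0.62, limma adjusted p = 0.648) was smaller than the SD among the control livers.

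Fbp1 (ENSMUSG00000069805, chr13:62864753-62888298), the liver fructose-1,6-bisphosphatase, read 11.06, 11.06, 11.08 and 11.04 in BMJ + DIO livers, against 11.21, 10.98 and 10.73 in DIO livers. BMJ + DIO replicates 1 and 2 hold the same value. The interval of Fbp1 was the narrowest of the 10 genes as deposited. The ratio of BMJ + DIO to DIO was 1.06, with a 95% interval of 0.882 to 1.28 (limma adjusted p = 0.699).

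G6pc (ENSMUSG00000078650, chr11:101367716-101377903), the catalytic subunit of glucose-6-phosphatase and the last enzyme of the pathway, varied in both groups. It read 10.24, 10.43, 10.49 and 9.87 in BMJ + DIO livers, against 10.70, 10.01 and 9.63 in DIO livers. BMJ + DIO replicate 4 was lower than DIO replicate 2, and the groups overlapped. The ratio was 1.11 with a 95% interval of 0.685 to 1.79 (limma adjusted p = 0.799). The interval leaves room for changes in either direction.

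For all 4 enzymes the mean was higher in BMJ + DIO as deposited, but this direction turned without DIO replicate 3, after quantile normalization and after cyclic loess. Without DIO replicate 3 the differences were -0.07 for Pcx, -0.03 for Pck1, -0.04 for Fbp1 and -0.10 for G6pc. After cyclic loess, which evens out any trend with brightness, be it of technical or real origin, they were -0.12, -0.10, -0.20 and -0.13 in the same order. After cyclic loess Pcx was lower in BMJ + DIO without overlap (limma adjusted p = 0.534), as were 4.4% of all IDs. After quantile normalization Fbp1 was lower without overlap (limma adjusted p = 0.539), and 10.8% of all IDs had no overlap in either direction. Without DIO replicate 1, Pck1 and Fbp1 were higher without overlap, as were 26.8% of all IDs. No direction can therefore be given for the enzymes.

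Slc37a4 (ENSMUSG00000032114, chr9:44396946-44402966) encodes the transporter that carries glucose-6-phosphate into the endoplasmic reticulum, where G6pc acts on it. It read 9.65, 9.36, 9.65 and 9.45 in BMJ + DIO livers, against 9.27, 9.13 and 8.75 in DIO livers. The lowest treated liver, replicate 2, stood 0.087 above the highest control liver, replicate 1. The means were 9.53 ± 0.15 (SD, n = 4) in BMJ + DIO and 9.05 ± 0.27 (SD, n = 3) in DIO. The ratio of BMJ + DIO to DIO was 1.40 (95% interval 1.09 to 1.79), with a difference of 0.48 (SE 0.15). The limma adjusted p was 0.571, so the difference did not pass the test over all IDs (unadjusted p = 0.0163). With array weights, which gave DIO replicate 2 most of the weight of its group, Slc37a4 (limma adjusted p = 0.037) and Irs2 (limma adjusted p = 0.0386) passed, and so did 18.5% of all IDs.

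Bright IDs as a class were shifted higher in BMJ + DIO, and Slc37a4 was among the bright IDs. For those 1489 bright IDs, which include 7 of the 10 genes, the median difference was 0.22 and 85.0% had a higher mean in BMJ + DIO. Slc37a4 exceeded 84.9% of these 1489 IDs in its difference, whereas Pck1 exceeded 40.6%, G6pc 35.0%, Pcx 32.7%, Fbp1 24.1%, Tat 11.3% and Igfbp1 7.3%. Without DIO replicate 3 the bright median became 0.03, and the Slc37a4 difference was 0.33 (95% interval 0.04 to 0.62, limma adjusted p = 0.858). Its groups stayed apart there, as did those of 6.69% of all IDs, but leaving out an array cannot make separate groups overlap. After cyclic loess the Slc37a4 difference was 0.21 (95% interval -0.05 to 0.47) and the groups overlapped, at 9.61, 9.29, 9.46 and 9.31 in BMJ + DIO livers against 9.06, 9.21 and 9.35 in DIO livers. The part of the shift in the Slc37a4 result was not tested further.

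Set against the other genes within the same liver, Slc37a4 was relatively higher in treated livers for most pairs. Slc37a4 minus Tat, for example, was -1.70, -1.81, -1.81 and -2.00 in BMJ + DIO livers, against -2.37, -2.28 and -2.39 in DIO livers. Slc37a4 minus Fbp1 was -1.41, -1.71, -1.42 and -1.58 in BMJ + DIO livers, against -1.94, -1.85 and -1.98 in DIO livers. These log2 differences compare livers and say nothing of which transcript is more abundant. The groups did not overlap for 6 of the 9 pairs with Slc37a4 (Pck1, Fbp1, Pcx, Foxo1, Irs2 and Tat), and for 1 of the 36 pairs without it (Foxo1 with Tat). Slc37a4 minus any other ID showed no overlap for 51.8% of the other 20054 tested IDs and for 35.9% of the other 1488 bright IDs, so the count of 6 is not called particular to these genes. The pair with G6pc, its partner in glucose release, overlapped, at -0.59, -1.08, -0.84 and -0.42 in BMJ + DIO livers against -1.43, -0.89 and -0.88 in DIO livers. After cyclic loess 5 of the 9 pairs did not overlap, but the share over all IDs was not worked out on that scale, so this count is not read further. The pairs share 1 gene and were set up after its values were seen, so they are given as a description.

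**Figure D2:**
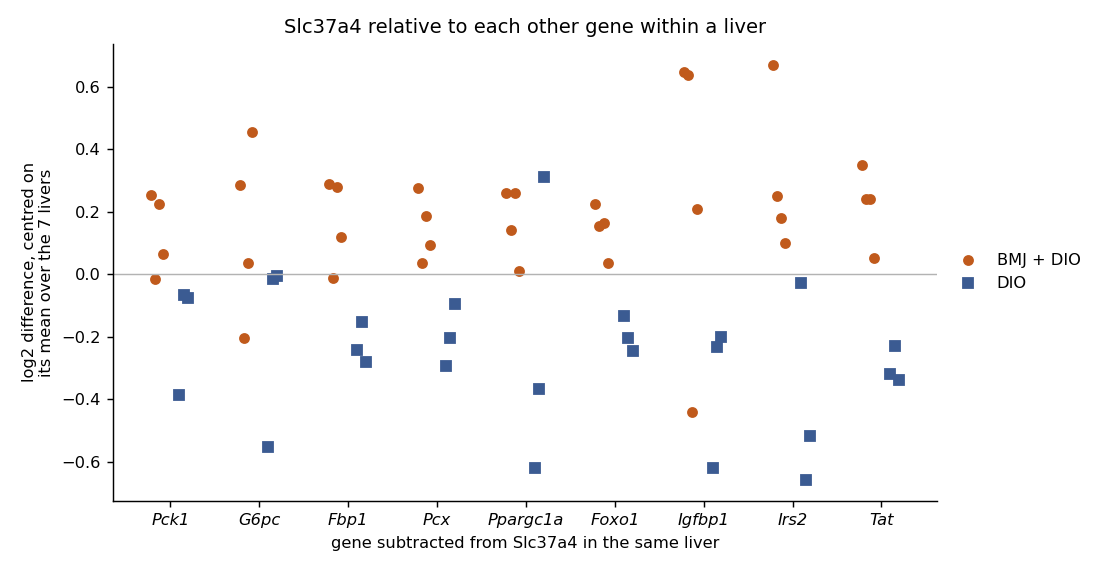
Log2 difference between Slc37a4 and each other gene in the same liver, centred on its mean over the 7 livers. Circles are the 4 BMJ + DIO livers and squares, to their right, the 3 DIO livers. The groups separate for 6 of the 9 genes and overlap for G6pc, Ppargc1a and Igfbp1.

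The regulators gave no difference beyond the spread between livers. Foxo1 (ENSMUSG00000044167, chr3:52268337-52350109) read 5.06, 4.83, 5.12 and 5.05 in BMJ + DIO livers, against 5.03, 4.97 and 4.62 in DIO livers. The groups overlapped, with DIO replicate 3 lowest, and the ratio was 1.10 (95% interval 0.896 to 1.36, limma adjusted p = 0.597). Without DIO replicate 3 the Foxo1 difference was 0.01 on the log2 scale.

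Ppargc1a (ENSMUSG00000029167, chr5:51454249-52115853) encodes PGC-1 alpha, the coactivator induced by fasting. It read 4.98, 4.80, 4.98 and 5.03 in BMJ + DIO livers, against 5.48, 5.08 and 4.03 in DIO livers. Its control range of 1.45 was the widest of the 10 genes, while its treated range was 0.23. The difference was 0.08 (95% interval -0.73 to 0.90, limma adjusted p = 0.911) and rested on DIO replicate 3, the lowest liver. Without it the difference was -0.33 (95% interval -0.67 to 0.01, limma adjusted p = 0.858), and the other 2 DIO livers lay above all 4 BMJ + DIO livers. The nearest were DIO replicate 2 at 5.08 and BMJ + DIO replicate 4 at 5.03. In that comparison 6.69% of all IDs had no overlap in either direction.

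Of the genes whose printed promoters hold CAAAACA, none of Igfbp1, Irs2 and G6pc passed the test, and their means did not all lie on the same side of the control mean. Igfbp1 (ENSMUSG00000020429, chr11:7197787-7202546) encodes a secreted binding protein of insulin-like growth factors that insulin represses. It read 8.04, 7.76, 9.13 and 8.29 in BMJ + DIO livers, against 8.92, 8.39 and 7.98 in DIO livers. It was the sole gene of the 10 with a larger SD among treated livers, 0.59 (n = 4) in BMJ + DIO and 0.47 (n = 3) in DIO. BMJ + DIO replicates 3 and 2 were the highest and the lowest of all 7 livers. The difference was -0.13 (95% interval -1.06 to 0.80, limma adjusted p = 0.871), and its sign turned without DIO replicate 1 (0.11) or without BMJ + DIO replicate 2 (0.05).

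Irs2 (ENSMUSG00000038894, chr8:10984681-11008929) encodes the insulin receptor substrate that passes the insulin signal on in hepatocytes, and FOXO1 raises it. It read 4.82, 4.96, 5.33 and 5.20 in BMJ + DIO livers, against 5.15, 5.64 and 5.12 in DIO livers. The groups overlapped, since BMJ + DIO replicates 3 and 4 lay above DIO replicates 1 and 3. The difference was -0.22 (SE 0.18, 95% interval -0.66 to 0.21, limma adjusted p = 0.583). Irs2 was the sole gene with a lower mean in BMJ + DIO under each of the 17 alternatives, at -0.55 to -0.06. Other filters and variance models could not turn its sign, since they keep the difference of -0.22. The -0.55 came with array weights, which gave DIO replicate 2 most of the weight of its group. The value nearest 0 came without DIO replicate 2, the highest liver.

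The order of the livers for Irs2 was another than for most of the set. Its lowest liver was BMJ + DIO replicate 1 and its highest DIO replicate 2, whereas 6 of the other 9 genes had DIO replicate 1 highest and DIO replicate 3 lowest. G6pc, the third gene with CAAAACA in its window, was among those 6. Foxo1, Igfbp1 and Slc37a4 also lacked that order, which 15.5% of tested IDs had.

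Tat (ENSMUSG00000001670, chr8:109986078-109999804) encodes tyrosine aminotransferase, a liver enzyme of tyrosine breakdown induced by glucocorticoids and fasting. It read 11.35, 11.17, 11.46 and 11.45 in BMJ + DIO livers, against 11.64, 11.41 and 11.13 in DIO livers. The treated livers lay inside the control range, and the ratio was 0.974 (95% interval 0.773 to 1.23, limma adjusted p = 0.90). After cyclic loess Tat read 11.31, 11.10, 11.26 and 11.30 in BMJ + DIO livers, against 11.42, 11.51 and 11.77 in DIO livers. On that scale every treated liver was below every control liver, with a difference of -0.32 (95% interval -0.57 to -0.08, limma adjusted p = 0.534). Of all IDs, 4.4% were lower without overlap after cyclic loess, and 10.4% had no overlap in either direction. The sign of the Tat difference as deposited turned without DIO replicate 1 (0.08), without BMJ + DIO replicate 2 (0.02) and after median centring (0.0088).

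**Figure D3:**
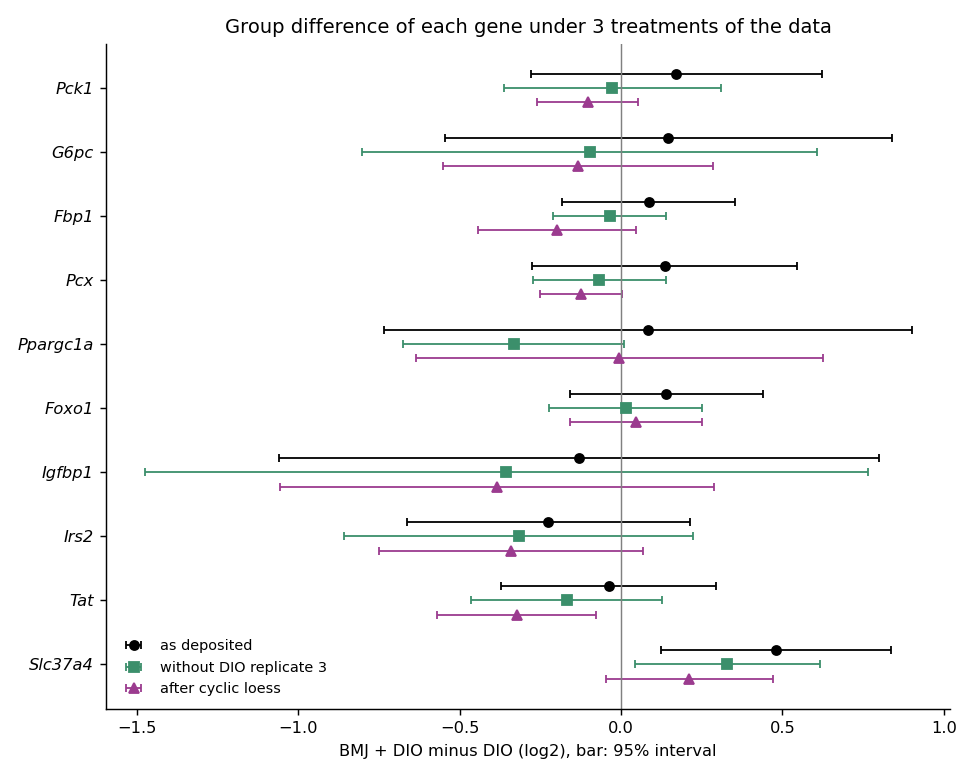
Log2 difference of each gene, BMJ + DIO minus DIO, with 95% intervals from limma, as deposited (circles), without DIO replicate 3 (squares) and after cyclic loess (triangles). As deposited, 7 of 10 differences are above 0, whereas 2 of 10 are above 0 under each of the other treatments. Slc37a4 is above 0 and Irs2 below 0 in all 3.

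Across the set, the sign of the median difference depended on DIO replicate 3 and on the scaling. As deposited, 7 of 10 genes were higher in BMJ + DIO and the median log2 difference was 0.11, beside 56.3% of all tested IDs and a median of 0.02. Of the 7 bright genes 5 were higher (71.4%) with a median of 0.13, below the 85.0% and 0.22 of the 1489 bright IDs. Without DIO replicate 3, 2 of 10 were higher and the median was -0.08. Without DIO replicate 1, 9 of 10 were higher and the median was 0.26. In that comparison Pck1, Fbp1 and Slc37a4 were higher without overlap, as were 26.8% of all IDs. After cyclic loess 2 of 10 were higher with a median of -0.13, and after quantile normalization 3 of 10 were higher with a median of -0.09. After median centring 8 of 10 were higher with a median of 0.16.

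The spread among control livers followed a pattern shared with many other bright IDs. All 10 genes in DIO replicate 3 were below their 7-array median, by 0.03 to 0.95, with a median deviation of -0.46. In DIO replicate 1 the median deviation was 0.22, and 7 of 10 genes were above their median. Over the 7 bright genes the median deviation was -0.52 in DIO replicate 3, beside -0.57 over the 1489 bright IDs, and 0.23 in DIO replicate 1, beside 0.10. BMJ + DIO replicate 3 had 9 of 10 genes above the median and 0 below. On that array the median deviation was 0.11 over the 7 bright genes, beside 0.09 over the 1489 bright IDs.

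The treated livers lay inside the control range for 6 of the 10 genes, Pck1, G6pc, Fbp1, Pcx, Ppargc1a and Tat, against 23.5% of tested IDs. Those 6 had DIO replicate 1 highest and DIO replicate 3 lowest, an order found for 15.5% of tested IDs. Of the 7 bright genes 5 (71.4%) had both traits. Among bright IDs 37.1% had the treated livers inside the control range and 34.6% had that order. The SD was larger in DIO for 9 of 10 genes, as it was for 72.6% of tested IDs and 89.1% of bright IDs. Whether the order of the control livers reflects glucose metabolism or the arrays was not tested. In whole liver, fewer hepatocytes and less RNA per hepatocyte cannot be told apart. Hepatocyte markers and markers of other liver cell types could not be matched to the IDs, so the tissue label was not checked against them.

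**Figure D4:**
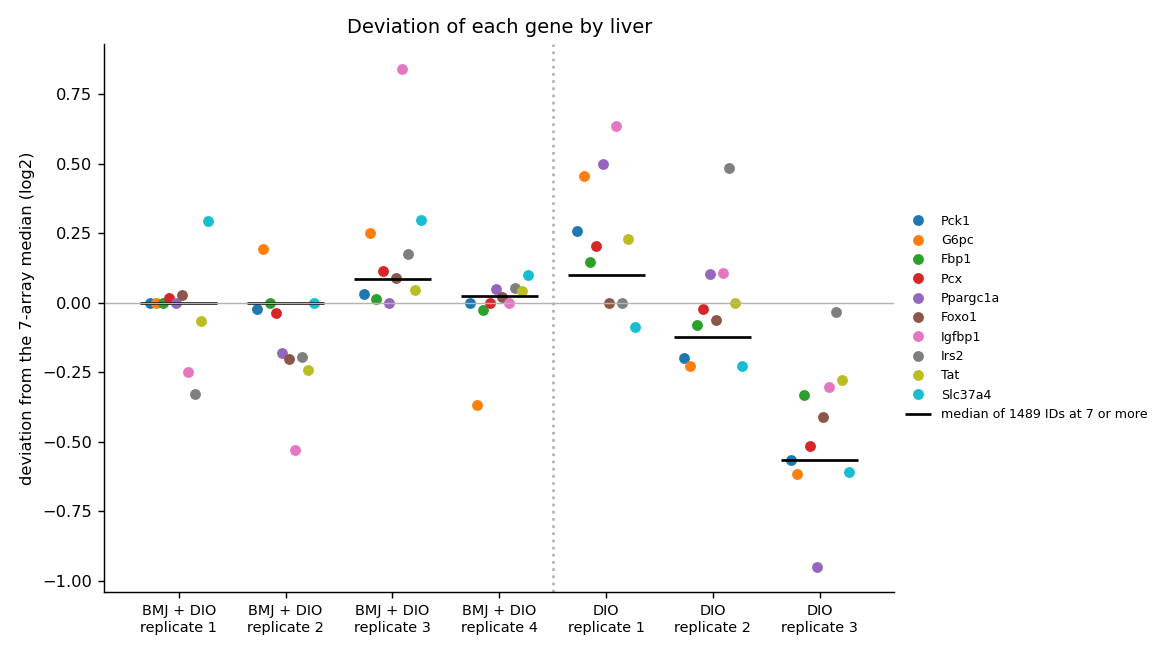
Deviation of each gene from its median over the 7 arrays (log2), by liver, with the 4 BMJ + DIO livers left of the dotted line and the 3 DIO livers right of it. Coloured points are the 10 genes and black bars the median deviation of the 1489 IDs that average at least 7. In DIO replicate 3 all 10 genes lie below 0, and the bar is at -0.57.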

How the data were processed

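The authors deposited log2 values, 1 per Ensembl gene ID and array, made with Affymetrix Power Tools and RMA (background correction, normalization across arrays and a summary per gene), per the submitters' processing notes, which name GRCm38 (mm10). Sources used here name neither the array type nor tool versions, and batches and signal over background were not examined.

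Groups and replicate numbers came from the sample titles. R 4.3.3 and limma 3.58.1 (lmFit, eBayes, group as the sole term, 5 residual and 1.05 prior degrees of freedom) were run on the 20055 IDs with a 7-array mean of 2.74 or more, which leaves out the dimmest 40% (13371 IDs). Two-sided p-values were adjusted over those IDs by the Benjamini-Hochberg method, with a threshold of 0.05. The test was also run on simulated data with independent noise per ID. Those data hold no shift of a whole array, so the run does not show how the test performs with such a shift. Differences are BMJ + DIO minus DIO. Alternatives were other filters on dim IDs, quantile normalization, cyclic loess, median centring, other variance models, array weights, a block for the replicate number and leaving out each array. Cyclic loess joined with leaving out DIO replicate 3 was added after seeing the data. The genes and lists were chosen with earlier results of these data known.

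Symbols of the 10 genes came with the choice of IDs. The reference gene table pairs 0 of 33426 IDs with a symbol, so lists of other pathway genes and cell type markers, written in symbols, were not tested. All 10 genes were to be named with their values on every array, and at most 5 genes per list. Repeated values occur: 3 of the 10 genes and 11833 of the 20055 IDs hold 1 value on more than 1 array. The 3 genes are Pck1, Fbp1 and Ppargc1a, each with the repeat inside the BMJ + DIO group.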

Additional observations from a re-analysis of the deposited data

How the results depend on the processing

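The test of all IDs gave 0 past the adjusted p of 0.05 in 15 of 17 alternatives, with 1 ID after cyclic loess and 3705 (18.5%) with array weights, which favour DIO replicate 2. With those weights 2 of the 10 genes passed, Slc37a4 (0.37) and Irs2 (-0.55), and 0 passed in the other 16 alternatives. The 1 gene at an unadjusted p under 0.05 (6.41% of all IDs) became 2 after quantile normalization (8.82%), 0 with the replicate block (2.24%), 3 with array weights (35.5%), 3 for cyclic loess without DIO replicate 3 (6.62%), and 1 to 3 without 1 array (2.74% to 29.0%). The 1 gene without overlap (3.52% of all IDs) became 3 after quantile normalization (10.8%), 2 after cyclic loess (10.4%), 4 for cyclic loess without DIO replicate 3 (16.5%), and 1 to 3 without 1 array (4.46% to 39.6%). Without overlap, Slc37a4 was higher and Tat and Fbp1 lower after quantile normalization, and Pcx and Tat were lower after cyclic loess. For cyclic loess without DIO replicate 3, Slc37a4 was higher and Tat, Pcx and Ppargc1a lower. The 1 gene at an unadjusted p under 0.05 after cyclic loess was Tat, which was lower, and not Slc37a4. The highest count without 1 array came without DIO replicate 1 (3 genes in both counts), where 26.8% of all IDs were higher without overlap. Slc37a4 was higher in BMJ + DIO in all 17 alternatives (0.21 to 0.59), with overlap in 1 of them, cyclic loess. The filters, variance models, replicate block and array weights leave the value on each array unchanged. Leaving out an array cannot make separate groups overlap. Only rescaled values could therefore change the overlap of Slc37a4, so the count of alternatives without overlap is no measure of stability. Among 170 gene differences, of which those under other filters and variance models could not turn, 26 turned sign. After quantile normalization these were Pck1 (-0.075), G6pc (-0.080), Fbp1 (-0.15) and Pcx (-0.10). After cyclic loess they were Pck1 (-0.10), G6pc (-0.13), Fbp1 (-0.20), Pcx (-0.12) and Ppargc1a (-0.0056). For cyclic loess without DIO replicate 3 they were Pck1 (-0.076), G6pc (-0.15), Fbp1 (-0.086), Pcx (-0.11), Ppargc1a (-0.35) and Foxo1 (-0.0012). Array weights turned Ppargc1a (-0.15) and median centring Tat (0.0088). Without 1 array, G6pc ran from -0.097 to 0.44, Pck1 from -0.027 to 0.39, Fbp1 from -0.035 to 0.20, Pcx from -0.067 to 0.29, Ppargc1a from -0.33 to 0.39, Igfbp1 from -0.41 to 0.11 and Tat from -0.17 to 0.084. The cause was not tested. The labels do not tie replicate numbers to shared animals or days. Deviations of same-numbered livers from their group means correlated at -0.36, -0.09 and -0.30. With so few arrays these correlations cannot decide whether a cage or day was shared. With the replicate block the Slc37a4 difference was 0.50 (limma adjusted p = 0.856) and 0 IDs passed.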
